A study of Homo sapiens with 12 samples.

Results

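The Notch pathway genes described here are 10 members: the receptors NOTCH1, NOTCH2 and NOTCH3, the ligands JAG1, JAG2 and DLL4, the DNA-binding factor RBPJ, and the target genes HES1, HEY1 and HEY2. They were chosen as a list of symbols, and GENCODE v44 paired all 10 symbols with identifiers among the 63677 in the count tables. RNA-seq counts came from MiaPaca2, an established human pancreatic ductal adenocarcinoma (PDAC) cell line that the labels give as wild type. Cells in DMEM/F12 medium with serum were treated for 24 h, with 3 libraries in each of 4 groups. Con received the vehicle DMSO. CPT received calcipotriol, a Vitamin D analogue, at 1 µM. GTA+5-Aza received glyceryl triacetate (GTA), an acetate precursor, at 2 mM together with the DNA methylation inhibitor 5-aza-deoxycytidine (5-Aza) at 1 µM, a combination called priming. CPT+GTA+5-Aza received all 3 agents. The groups are 1 cell line without stromal cells. GTA and 5-Aza were always given together in these libraries, so their separate effects cannot be told apart. Nothing in the labels says that replicates of a group came from separate cultures, so p-values measure the spread between these libraries.

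Notch receptors are single-pass membrane proteins that are activated by Jagged (JAG) or Delta-like (DLL) ligands on a neighbouring cell. Ligand binding lets ADAM proteases and then the γ-secretase complex cut the receptor, and the freed intracellular domain enters the nucleus and joins RBPJ and MAML co-activators at target genes. The HES and HEY targets are basic helix-loop-helix repressors, and in the pancreas HES1 is known for holding progenitors back from endocrine fate and for its presence in acinar-to-ductal change and early tumour lesions.

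RNA levels are given in CPM, the counts of a gene relative to its library's total after scaling by the TMM method of edgeR, with the mean ± SD of a group. A gene is said to be called, or to have risen or fallen, where edgeR's quasi-likelihood test gave a Benjamini-Hochberg adjusted p under 0.05 over the 17123 genes that passed a filter on low counts. DEGs, by the thresholds of the study, needed a change of more than 1.5-fold with P under 0.05 before adjustment. Total counts per library were 16162490 to 21224665, and no library repeated another.

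Promoter sequences from RefSeq on GRCh38.p14 matched 9 of the 10 members, all but HEY1. The 250 bases before the start of HES1 and of the receptors NOTCH3 and NOTCH1 are shown. HES1 was chosen because it holds 2 matches to the RBPJ motif, both in the same orientation. The receptors were chosen because they moved in opposite directions on priming from promoters that are both rich in CG. CG is the dinucleotide whose methylation 5-Aza inhibits. The sequences lie at chr3:194135898-194136147 on the plus strand for HES1, at chr19:15200996-15201245 on the minus strand for NOTCH3 and at chr9:136546049-136546298 on the minus strand for NOTCH1, each directly before the gene start in GENCODE. Capitals mark the RBPJ motif TGGGAA in HES1 and each CG in NOTCH3 and NOTCH1.
HES1: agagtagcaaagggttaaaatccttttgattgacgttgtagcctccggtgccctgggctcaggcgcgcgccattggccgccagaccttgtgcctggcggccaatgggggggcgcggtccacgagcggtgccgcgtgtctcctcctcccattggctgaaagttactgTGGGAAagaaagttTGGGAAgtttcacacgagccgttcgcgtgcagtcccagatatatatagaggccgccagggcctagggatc
NOTCH3: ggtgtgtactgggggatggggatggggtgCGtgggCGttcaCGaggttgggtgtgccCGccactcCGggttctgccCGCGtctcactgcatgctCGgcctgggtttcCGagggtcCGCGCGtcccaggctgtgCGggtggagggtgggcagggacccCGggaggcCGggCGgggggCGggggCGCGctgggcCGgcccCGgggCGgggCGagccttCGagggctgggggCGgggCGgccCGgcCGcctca
NOTCH1: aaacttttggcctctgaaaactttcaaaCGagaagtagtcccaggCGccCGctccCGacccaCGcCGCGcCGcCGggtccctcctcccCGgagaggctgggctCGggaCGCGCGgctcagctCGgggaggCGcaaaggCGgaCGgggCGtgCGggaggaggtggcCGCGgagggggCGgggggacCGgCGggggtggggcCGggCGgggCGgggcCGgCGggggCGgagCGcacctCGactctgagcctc

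In the HES1 window the RBPJ motif starts 84 and 70 bases before the gene start. TGGGAA was searched on both strands, and 20.8% of the 35116 promoters in the table hold it in the same window. HEY2 holds it 213 bases before its start, and the second of 5 listed RBPJ starts holds it at 115 and 72 bases. Thus 3 of the 9 members with a promoter have a match. These 9 members have 13 windows, and the shares of all promoters count single windows. The E-box CACGTG was found in 0 of the 9, against 6.34% of all promoters. CACNAG, the N-box that HES factors bind, was found in NOTCH3, HES1 and the first of the 5 RBPJ windows, against 32.0% of all promoters. The NOTCH1 window holds 33 CG dinucleotides and the NOTCH3 window 28, where the median over all promoters is 11. As many as in NOTCH1 were held by 8.15% of promoters, and as many as in NOTCH3 by 15.9%. The counts were 29 in NOTCH2, 17 in JAG1, 38 in JAG2, 20 in DLL4, 18 in HES1 and 35 in HEY2. These matches describe letters in 1 window, and no binding or methylation was measured in these libraries.

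Among the 10 members, 8 passed the filter on low counts, and DLL4 and HEY2 did not. Levels of different genes can be compared only per length, as CPM per kb of a gene's merged exons. In Con, JAG1 had the highest level at 46.5 ± 0.936 CPM per kb (n = 3), followed by JAG2 at 21.4 ± 2.09, NOTCH2 at 13.3 ± 0.113, HES1 at 12.6 ± 1.06, NOTCH1 at 10.3 ± 0.427, NOTCH3 at 5.17 ± 0.255, RBPJ at 3.93 ± 0.0306 and HEY1 at 0.706 ± 0.209. NOTCH2 and HES1 overlapped between libraries of Con, as did HEY2 and DLL4 at the bottom, and every other pair of neighbours in this order was apart. In GTA+5-Aza, HES1 at 15.9 ± 0.567 CPM per kb stood above NOTCH2 at 13.9 ± 0.338, and NOTCH3 at 9.07 ± 1.05 overlapped NOTCH1 at 8.57 ± 0.276. The order depends on which length is used. Per kb of the canonical transcript, RBPJ at 11.2 ± 0.0867 stood above NOTCH3 at 5.60 ± 0.276 in Con.

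**Figure D1:**
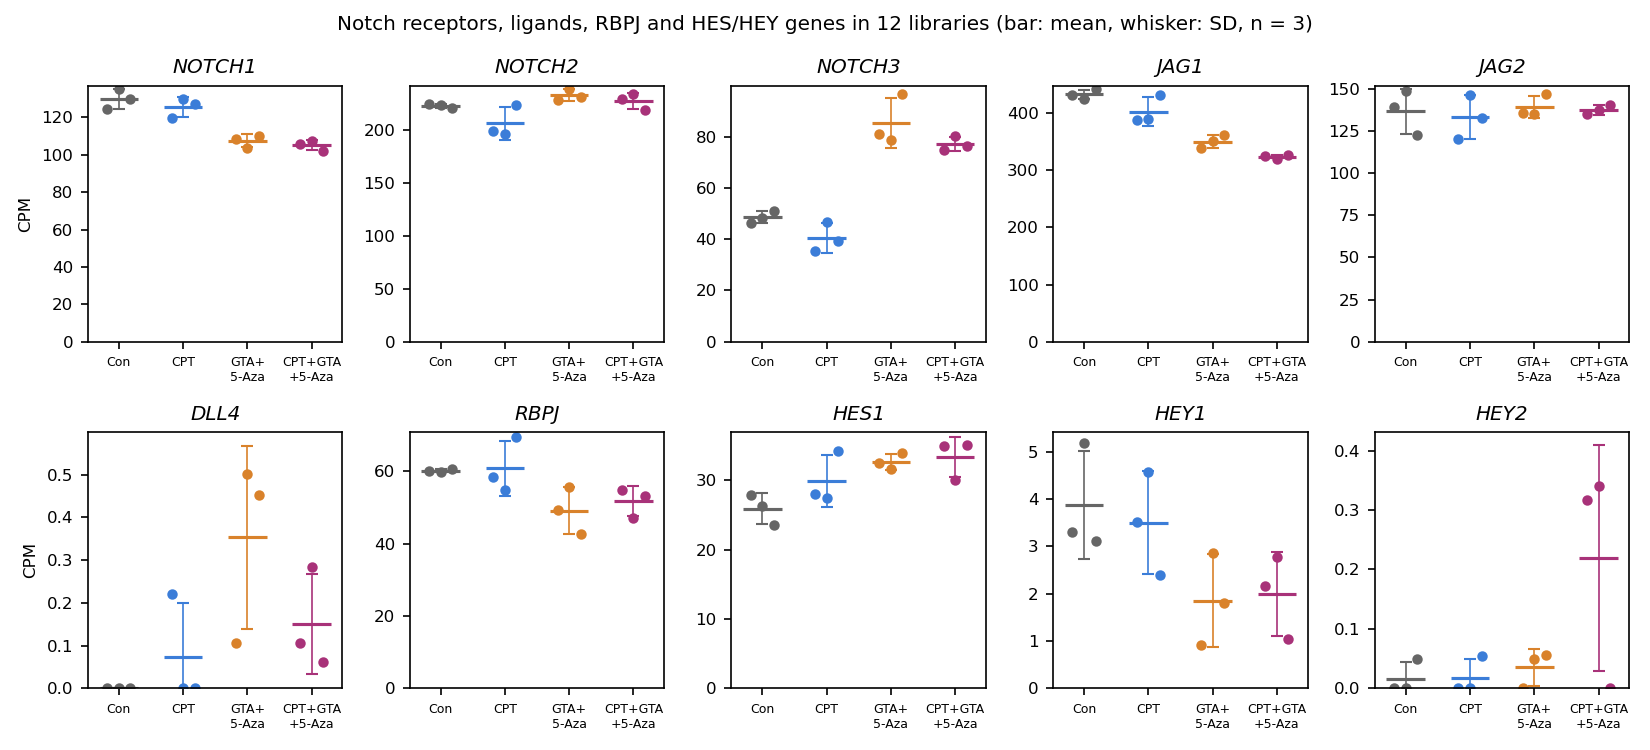
TMM-scaled CPM (y axes from 0) of the 10 members in the 4 groups (x axes). Points are libraries, bars the mean and whiskers the SD of 3 libraries. NOTCH3 sits at 35.5 to 51.1 CPM in the unprimed libraries and at 74.6 to 96.6 CPM in the primed ones, while NOTCH1 and JAG1 are lower in every primed library than in every unprimed library.

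Priming was compared without CPT (GTA+5-Aza against Con) and with CPT (CPT+GTA+5-Aza against CPT), and these comparisons share no library. In GTA+5-Aza against Con, NOTCH3 and HES1 rose, and NOTCH1, JAG1, RBPJ and HEY1 fell. Thus 6 of the 8 tested members were called, where 17.5% of all tested genes were called (1703 or 9.95% higher and 1290 or 7.53% lower). The members were chosen with earlier results of these data known, and the study had already named HEY1 among the genes downregulated by priming. The shares here are therefore not a test of the list. In CPT+GTA+5-Aza against CPT, NOTCH3 rose and NOTCH1 and JAG1 fell, 3 of 8 members against 17.0% of all genes (1639 or 9.57% higher and 1265 or 7.39% lower). Scaling by library size alone moved these splits to 2013 higher and 908 lower without CPT, and to 1986 and 891 with CPT. Under the DEG thresholds, NOTCH3 was upregulated and HEY1 was downregulated in each comparison. Without CPT 8.44% of all genes were DEGs (6.82% higher and 1.62% lower), and with CPT 8.67% (6.93% higher and 1.74% lower). The median of all tested genes lay at a log2 fold change of 0.0069 without CPT and 0.0055 with CPT. RNA from bulk cultures cannot tell fewer cells that express a gene from less RNA per cell.

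NOTCH3, at chr19:15159038-15200995, is the receptor best known from vascular smooth muscle and from several carcinomas. It had 46.3, 48.4 and 51.1 CPM in Con, 35.5, 46.7 and 39.2 in CPT, 80.9, 78.5 and 96.6 in GTA+5-Aza, and 74.6, 80.0 and 76.5 in CPT+GTA+5-Aza. Every primed library was above every unprimed one. NOTCH3 rose 1.75-fold without CPT (log2 fold change 0.81 ± 0.09 SE, adjusted p = 9.01e-07) and 1.90-fold with CPT (0.93 ± 0.10, adjusted p = 1.46e-07). With each library's trend with GC content removed, the log2 fold changes were 0.63 and 0.77. NOTCH3 was called in 21 of 22 alternative fits without CPT and in 22 of 22 with CPT. The exception was edgeR's test against a fold change of 1.5 (adjusted p = 0.143).

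NOTCH1, at chr9:136494433-136546048, is the receptor first found through its translocation in T-cell leukaemia. It had 124, 135 and 130 CPM in Con, 120, 130 and 127 in CPT, 109, 104 and 110 in GTA+5-Aza, and 106, 107 and 102 in CPT+GTA+5-Aza. The primed libraries were all below the unprimed libraries, by less than the move of NOTCH3. NOTCH1 fell by 0.27 ± 0.06 (SE) on the log2 scale without CPT (adjusted p = 0.00373) and by 0.26 ± 0.06 with CPT (adjusted p = 0.0061), a 1.21-fold and a 1.20-fold drop. With the GC trend removed the log2 fold changes were -0.45 and -0.43.

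NOTCH2, at chr1:119911553-120100779, had the highest level per kb of the receptors. It had 224, 223 and 221 CPM in Con, 199, 196 and 224 in CPT, 228, 239 and 231 in GTA+5-Aza, and 229, 234 and 219 in CPT+GTA+5-Aza. It was not called in either comparison. The log2 fold change was 0.064 without CPT (95% interval -0.057 to 0.18, adjusted p = 0.523) and 0.14 with CPT (0.019 to 0.26, adjusted p = 0.104). NOTCH2 was called with CPT in 3 of 22 alternatives: with the GC trend removed (0.16), with scaling by library size alone (0.18) and without CPT replicate 3 (0.20). NOTCH2NLA, a partial copy of NOTCH2 elsewhere on the chromosome, is listed with 0 counts, so how reads shared with such copies were assigned is uncertain.

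The receptors therefore made up different shares of the summed NOTCH1 to NOTCH4 level per kb. The share of NOTCH3 was 17.7% ± 0.673 (SD, n = 3) in Con and 28.0% ± 2.15 in GTA+5-Aza, and 15.9% ± 1.81 in CPT and 26.5% ± 0.738 in CPT+GTA+5-Aza. The share of NOTCH1 was 35.5% ± 0.770, 26.5% ± 0.807, 37.1% ± 0.621 and 27.1% ± 0.124 in the same order. NOTCH2 held 43.0% to 45.7% in each group as a mean. There were 0.375 ± 0.0175 NOTCH3 counts per NOTCH1 count in Con and 0.793 ± 0.0727 in GTA+5-Aza, a ratio within a library that no scaling changes. These shares and ratios were chosen after the levels were seen and are given without a test. Per kb of the canonical transcripts the mean share of NOTCH3 was 14.3% in Con and 23.0% in GTA+5-Aza, and that of NOTCH1 34.6% and 26.4%. In CPT+GTA+5-Aza NOTCH1 had 26.9% and NOTCH3 21.7% by that length. With it, NOTCH1 stayed above NOTCH3 in every primed library.

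**Figure D2:**
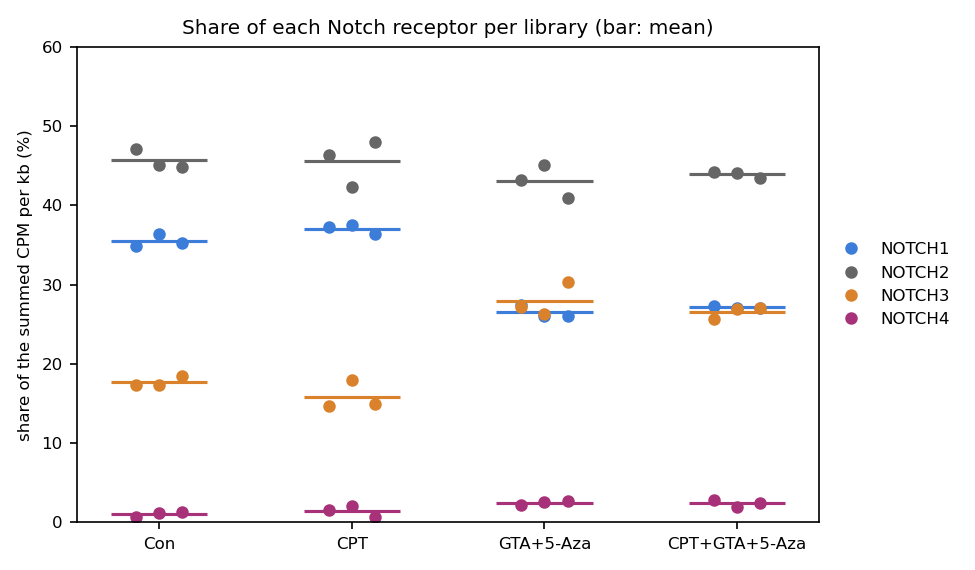
Share of each receptor in the summed CPM per kb of NOTCH1 to NOTCH4 (y axis, percent, from 0) in the 4 groups (x axis). Points are libraries and bars group means. Levels are per kb of merged exons. NOTCH1 lies above NOTCH3 in all 6 unprimed libraries, and the means of both lie between 26.5% and 28.0% in the primed groups. Per kb of the canonical transcripts, not drawn, NOTCH1 stays above NOTCH3 in every primed library.

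JAG1, at chr20:10637684-10673999, encodes the main Jagged ligand and is itself a known Notch target in some tissues. It had 432, 424 and 441 CPM in Con, 387, 389 and 432 in CPT, 339, 351 and 361 in GTA+5-Aza, and 325, 320 and 326 in CPT+GTA+5-Aza. The highest primed library was below the lowest unprimed one. JAG1 fell by 0.31 ± 0.05 (SE) on the log2 scale without CPT (adjusted p = 0.000197) and by 0.31 ± 0.05 with CPT (adjusted p = 0.000145), a 1.24-fold drop in each. JAG1 shares 306 exon bases with a lncRNA on the opposite strand that had 3920 counts over all libraries, against 26195 counts of JAG1 in Con alone, and the strand setting of the counting is not given in the sources used here.

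JAG2, at chr14:105140982-105168824, is the other Jagged ligand. It had 139, 149 and 122 CPM in Con, 120, 146 and 132 in CPT, 136, 135 and 147 in GTA+5-Aza, and 135, 137 and 140 in CPT+GTA+5-Aza. The groups overlapped throughout, and JAG2 was not called: the log2 fold change was 0.024 without CPT (95% interval -0.13 to 0.18, adjusted p = 0.878) and 0.046 with CPT (-0.11 to 0.20, adjusted p = 0.749). Its direction was not settled. With the GC trend removed the log2 fold change was -0.17 without CPT (adjusted p = 0.044) and -0.13 with CPT (adjusted p = 0.125). Leaving out Con replicate 3 or GTA+5-Aza replicate 3 also reversed it in the comparison without CPT. There were 3.19 ± 0.385 JAG1 counts per JAG2 count in Con, 3.05 ± 0.336 in CPT, 2.52 ± 0.0734 in GTA+5-Aza and 2.36 ± 0.0503 in CPT+GTA+5-Aza.

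DLL4, at chr15:40929340-40939073, is the Delta-like ligand of sprouting blood vessels. It was near the limit of detection, with 0, 0 and 0 counts in Con, 4, 0 and 0 in CPT, 2, 10 and 8 in GTA+5-Aza, and 2, 5 and 1 in CPT+GTA+5-Aza. A count of 0 allows up to 3 counts in a library, and the mean level of GTA+5-Aza was 2.37 times that limit in Con. GTA+5-Aza replicate 1, at 0.107 CPM, lay below the mean limit of 0.149 CPM. The mean level of CPT+GTA+5-Aza was 1.01 times the same limit. That limit is set for a single library, so it cannot decide whether a group mean differed from Con. Without the filter on low counts, DLL4 had a log2 fold change of 4.57 in CPT+GTA+5-Aza against Con. It was not called there (unadjusted P = 0.0164, adjusted p = 0.131). Without the filter on low counts, DLL4 had an adjusted p on priming of 0.0314 without CPT and 0.791 with CPT. The limit of 3 counts covers counting error only.

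RBPJ, at chr4:26163455-26435131, encodes the DNA-binding factor that all Notch receptors use. It had 60.1, 59.9 and 60.8 CPM in Con, 58.5, 54.8 and 69.4 in CPT, 49.2, 55.6 and 42.6 in GTA+5-Aza, and 54.9, 47.2 and 53.3 in CPT+GTA+5-Aza. Con and GTA+5-Aza did not overlap, whereas CPT+GTA+5-Aza and CPT overlapped. RBPJ fell by 0.29 ± 0.10 (SE) on the log2 scale without CPT (adjusted p = 0.0391). With CPT the value was -0.23 ± 0.10 (adjusted p = 0.108), and it was called without CPT replicate 2 (-0.31, adjusted p = 0.0227). The call without CPT was lost without any 1 of Con replicates 1, 2 and 3, GTA+5-Aza replicates 1 and 3, or CPT+GTA+5-Aza replicate 3 (log2 fold change -0.39 to -0.20 over the 12 leave-one-out fits, adjusted p up to 0.234). It was also lost with scaling by library size alone (-0.25, adjusted p = 0.0792) and with the replicate number as a block (-0.29, adjusted p = 0.0532).

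HES1, at chr3:194136148-194138732, is the best known Notch target in the pancreas, and its start region carries the 2 copies of TGGGAA shown above. It had 27.9, 26.3 and 23.5 CPM in Con, 28.0, 27.4 and 34.2 in CPT, 32.5, 31.6 and 33.9 in GTA+5-Aza, and 35.0, 30.0 and 35.0 in CPT+GTA+5-Aza. All GTA+5-Aza libraries were above all Con libraries, but CPT replicate 3 lay among the primed libraries. HES1 rose 1.26-fold without CPT (log2 fold change 0.33 ± 0.11 SE, adjusted p = 0.0334). With CPT the log2 fold change was 0.16 ± 0.11 (adjusted p = 0.367). Leaving out Con replicate 2 or 3 or GTA+5-Aza replicate 1 or 3 ended the call without CPT (0.27 to 0.39, adjusted p up to 0.168), as did removal of the GC trend (adjusted p = 0.0547).

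HEY1, a repressor of the same family, moved the other way. It had 3.31, 5.19 and 3.11 CPM in Con, 3.52, 4.57 and 2.40 in CPT, 0.908, 2.85 and 1.81 in GTA+5-Aza, and 2.17, 2.78 and 1.04 in CPT+GTA+5-Aza. The levels are low and the libraries of a group spread widely. HEY1 fell 2.08-fold without CPT (log2 fold change -1.05 ± 0.37 SE, adjusted p = 0.0492), and with CPT the value was -0.80 ± 0.37 (adjusted p = 0.148). The call without CPT was lost in 8 of the 12 leave-one-out fits, those without Con replicate 1, 2 or 3, CPT replicate 1, GTA+5-Aza replicate 1 or 3, or CPT+GTA+5-Aza replicate 1 or 2 (log2 fold change -1.52 to -0.73, adjusted p up to 0.243), and with scaling by library size alone (adjusted p = 0.0617). HEY1 also left the DEGs without Con replicate 2 or GTA+5-Aza replicate 1 in the comparison without CPT, and without CPT replicate 1 or 2 or CPT+GTA+5-Aza replicate 1 or 3 in the comparison with CPT. There were 0.150 ± 0.0423 HEY1 counts per HES1 count in Con and 0.0573 ± 0.0314 in GTA+5-Aza.

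HEY2, at chr6:125747664-125761269, a factor of arterial and cardiac development, had 0, 0 and 1 counts in Con, 0, 0 and 1 in CPT, 0, 1 and 1 in GTA+5-Aza, and 6, 6 and 0 in CPT+GTA+5-Aza. Without the filter on low counts its adjusted p was 0.436 in CPT+GTA+5-Aza against CPT. No difference was detectable at this depth.

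**Figure D3:**
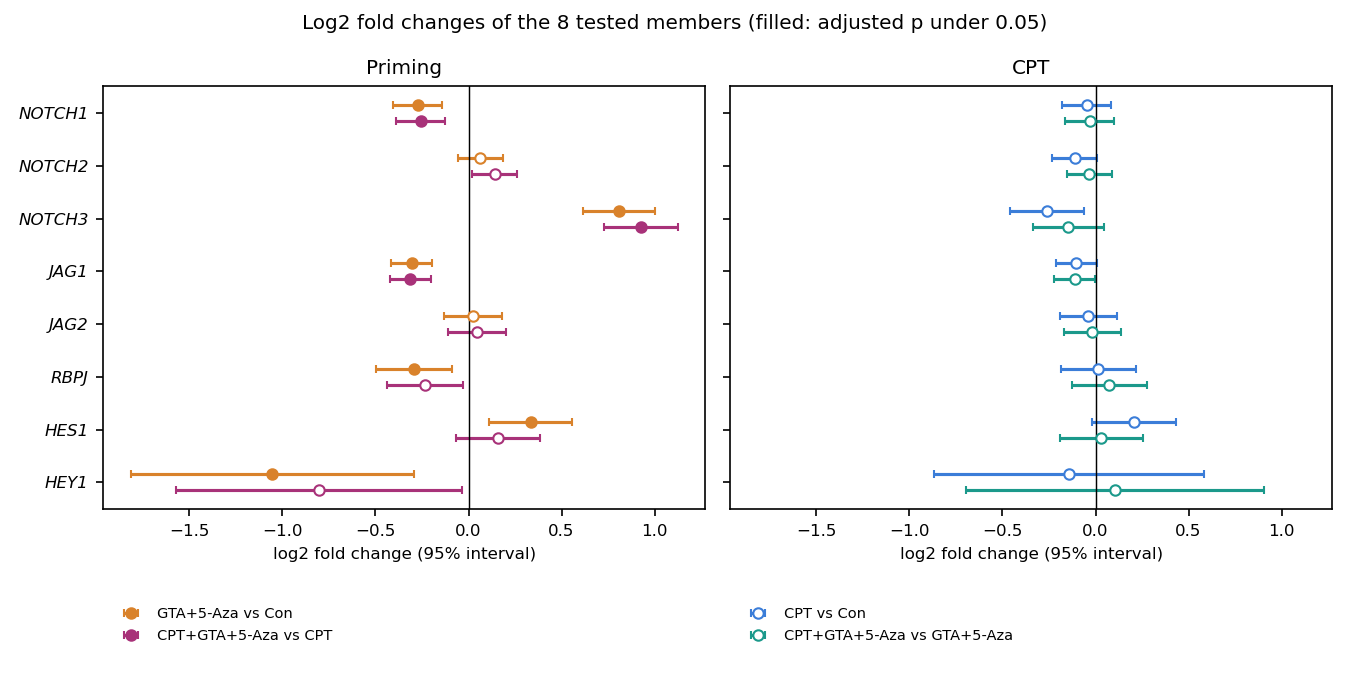
Log2 fold changes (x axes) of the 8 tested members (y axis) on priming (left) and on CPT (right), with 95% intervals, filled where the adjusted p is under 0.05. On priming NOTCH3 stands at 0.81 and 0.93 and NOTCH1 and JAG1 at -0.31 to -0.26, and on CPT no point is filled.

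Averaged over CPT, a contrast that uses all 12 libraries and so the same ones again, 6 of the 8 tested members were called, against 30.9% of all genes (16.8% higher and 14.0% lower). NOTCH3 (log2 fold change 0.87 ± 0.07 SE) and HES1 (0.25 ± 0.08) were higher, and NOTCH1 (-0.26 ± 0.05), JAG1 (-0.31 ± 0.04), RBPJ (-0.26 ± 0.07) and HEY1 (-0.93 ± 0.26) were lower. The averaged calls of RBPJ and HEY1 held in each leave-one-out fit, and that of HES1 was lost without Con replicate 3. In CPT+GTA+5-Aza against Con, which shares libraries with the comparisons above, 4 members were called against 16.8% of all genes (9.62% higher and 7.16% lower). NOTCH3 (0.66 ± 0.09) and HES1 (0.36 ± 0.11) were higher, NOTCH1 (-0.30 ± 0.06) and JAG1 (-0.42 ± 0.05) were lower, and HEY1 had a value of -0.95 ± 0.37 (adjusted p = 0.08). NOTCH3 and HEY1 were DEGs there, beside 8.32% of all genes. The HES1 call there was lost without Con replicate 3 or CPT+GTA+5-Aza replicate 1 or 3 (adjusted p up to 0.122). HEY1 was called there without a filter on low counts (adjusted p = 0.0368), with only the groups of the comparison (0.0193), with the replicate block (0.0372) and without CPT replicate 2 (0.0499), and RBPJ with only the groups of the comparison (-0.22, adjusted p = 0.0368). NOTCH2 was called in the average with scaling by library size alone (0.14, adjusted p = 0.00909), with the GC trend removed (0.13, adjusted p = 0.00475) and without CPT replicate 3 (adjusted p = 0.013).

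CPT moved no member past the threshold. In CPT against Con, 0 of 8 members and 0 (0.0%) of all 17123 genes were called by edgeR's quasi-likelihood test, and 4.28% of genes had an unadjusted P under 0.05. DESeq2 called 4 genes and the likelihood ratio test 4, with 0 members among them. Under the DEG thresholds of the study, 118 genes were higher and 195 lower, again with 0 members. NOTCH3 had the smallest unadjusted P of the members, at 0.0113, with a log2 fold change of -0.26 (95% interval -0.46 to -0.065), and its CPT libraries overlapped those of Con. HES1 had 0.21 (-0.018 to 0.43), NOTCH2 -0.11 (-0.23 to 0.0091) and JAG1 -0.10 (-0.21 to 0.0065). The other 4 tested members had log2 fold changes from -0.14 to 0.015.

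In primed cells, CPT+GTA+5-Aza against GTA+5-Aza, again 0 members and 0 of all genes were called by edgeR's quasi-likelihood test, and 2.71% of genes had an unadjusted P under 0.05. DESeq2 called 1 gene and the likelihood ratio test 3, and 0 were members. At the DEG thresholds 59 genes were higher and 113 lower, and 0 were members. JAG1 was lower in all 3 libraries that also received CPT, with a log2 fold change of -0.11 (95% interval -0.22 to -0.0021) and an unadjusted P of 0.0461. The value of JAG1 in CPT against Con, which shares no library with this comparison, was -0.10. NOTCH3 had -0.15 (-0.34 to 0.044).

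Whether priming acted differently with CPT was tested by the interaction of CPT and priming. No member and 0 of all genes were called, and 2.63% of genes had an unadjusted P under 0.05. DESeq2 called 0 genes and the likelihood ratio test 3, none a member. The smallest unadjusted P of a member was 0.262, for HES1 (-0.18, 95% interval -0.49 to 0.14), so the call of HES1 without CPT and its absence with CPT is not a difference that passed a test. For NOTCH3 the interaction was 0.12 (-0.16 to 0.39), for RBPJ 0.060 (-0.23 to 0.35) and for HEY1 0.25 (-0.83 to 1.33).

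Beyond the members, 54 other genes of the pathway were listed by role, and 48 of them passed the filter on low counts. In GTA+5-Aza against Con, 9 rose and 5 fell (29.2%, against 17.5% of all genes), and in CPT+GTA+5-Aza against CPT, 12 rose and 8 fell (41.7%, against 17.0%). Without CPT replicate 1 the latter count was 13 genes in place of 20. The list was chosen with earlier results of these data known. Of its 6 tested genes grouped as other HES/HEY factors and feedback targets, 4 rose without CPT and 6 with CPT, and none fell. With the GC trend removed these counts were 3 and 4, and with DESeq2 4 and 5. The members HES1 and HEY1 are not in this group. HEY1 fell without CPT, and HES1 was not called with CPT. The genes were grouped by family or role, and whether Notch activity set their levels was not tested. HES5 was not tested, with 1 count in 1 library.

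HES2 had 5.10, 5.86 and 6.03 CPM in Con, 4.73, 4.92 and 3.71 in CPT, 12.9, 12.5 and 11.7 in GTA+5-Aza, and 10.8, 9.82 and 8.57 in CPT+GTA+5-Aza. Its primed libraries were all above its unprimed libraries, with a log2 fold change of 1.13 ± 0.17 (SE) in each comparison (adjusted p = 2.92e-05 and 4.57e-05). HES7, the oscillating repressor of the segmentation clock, had 0.526, 0.620 and 0.875 CPM in Con, 0.220, 0.984 and 0 in CPT, 2.67, 3.26 and 3.16 in GTA+5-Aza, and 4.38, 4.31 and 5.20 in CPT+GTA+5-Aza. It rose by 2.16 ± 0.48 and 3.46 ± 0.52 on the log2 scale (adjusted p = 0.00241 and 2.83e-05), from low levels. The value with CPT rested on few counts in CPT and was 2.90 to 5.31 when a library was left out, the highest without CPT replicate 2.

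HES6, which is known to oppose HES1, had 18.4, 28.1 and 16.0 CPM in Con, 17.1, 21.4 and 21.7 in CPT, 35.7, 32.6 and 42.8 in GTA+5-Aza, and 39.2, 40.6 and 34.7 in CPT+GTA+5-Aza. It was higher in all primed libraries, with log2 fold changes of 0.83 ± 0.15 and 0.93 ± 0.15 (adjusted p = 0.000309 and 9.31e-05). HES4 rose by 0.55 ± 0.16 and 0.51 ± 0.16 (adjusted p = 0.0182 and 0.0312). Its call was lost without Con replicate 1 or 3 or GTA+5-Aza replicate 3 in the comparison without CPT (0.39 to 0.69), and without CPT replicate 1 or 3 or any CPT+GTA+5-Aza replicate in the comparison with CPT (0.34 to 0.82). Both calls were also lost with DESeq2 (adjusted p = 0.105 and 0.143) and with the GC trend removed, where the values were 0.29 and 0.30 (adjusted p = 0.066 and 0.0557). HEYL, the third HEY factor, was called with CPT (1.62 ± 0.33, adjusted p = 0.000909), and without CPT had 0.86 ± 0.31 (adjusted p = 0.0535), which became a call without Con replicate 2, CPT replicate 2 or 3, or GTA+5-Aza replicate 2 (0.62 to 1.09). HEYL without CPT was also called by the likelihood ratio test, by DESeq2, with scaling by library size alone, without the filter and with only the groups of the comparison (adjusted p = 0.0226 to 0.0478). NRARP, a feedback inhibitor induced by Notch, was called with CPT (0.34 ± 0.11, adjusted p = 0.0301) but not without CPT replicate 1 or CPT+GTA+5-Aza replicate 1 or 2 (0.24 to 0.41) or with the GC trend removed (0.20, adjusted p = 0.202), and without CPT had 0.26 ± 0.11 (adjusted p = 0.0984).

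**Figure D4:**
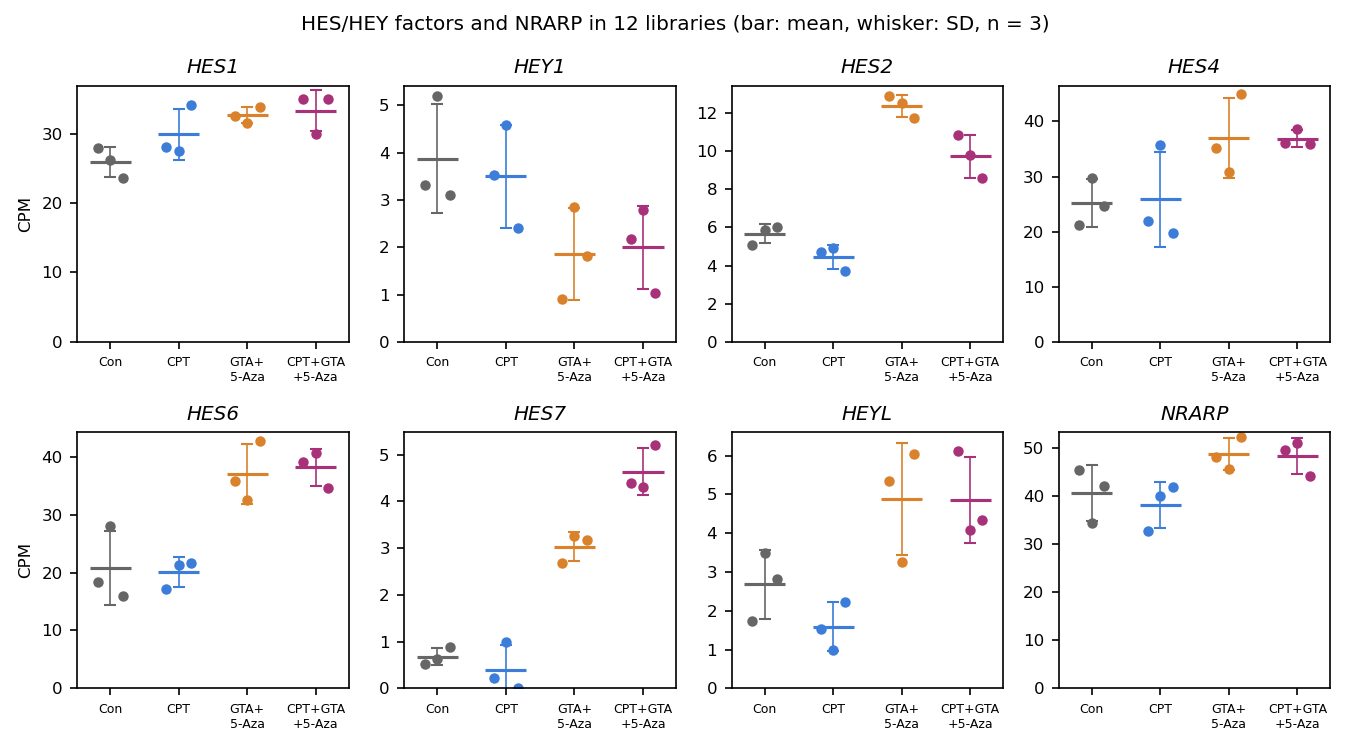
TMM-scaled CPM (y axes from 0) of HES1, HEY1, the other tested HES/HEY factors and NRARP in the 4 groups (x axes). Points are libraries, bars the mean and whiskers the SD of 3 libraries. HES2, HES6 and HES7 are higher in every primed library than in every unprimed one, and HEY1 has lower means in the primed groups (1.86 and 2.00 CPM against 3.87 and 3.50).

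NOTCH4, the endothelial receptor, rose from a low level. It had 2.00, 3.53 and 3.65 CPM in Con, 4.07, 5.71 and 2.02 in CPT, 6.68, 7.96 and 8.69 in GTA+5-Aza, and 8.40, 6.07 and 7.16 in CPT+GTA+5-Aza. The log2 fold change was 1.34 ± 0.27 (SE) without CPT (adjusted p = 0.00102) and 0.87 ± 0.27 with CPT (adjusted p = 0.0262). The call with CPT was lost without CPT replicate 1 or 3 or CPT+GTA+5-Aza replicate 1 or 3 (0.55 to 1.24, adjusted p up to 0.137). DLK2, a non-canonical ligand, rose by 0.88 ± 0.17 and 1.06 ± 0.17 (adjusted p = 0.000672 and 8.75e-05). DLL1, DLL3 and DLK1 were not called in either priming comparison. DLK1, a non-canonical ligand with 8 to 37 counts per library, had 1.34 ± 0.52 and 1.27 ± 0.50 (adjusted p = 0.0757 and 0.0848) and passed the DEG thresholds in each, and it was called in the average over CPT (1.31, adjusted p = 0.00659) and where all 3 agents were set against Con (1.65, adjusted p = 0.0266).

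Of the enzymes that act on ligands and receptors, NEURL1B, a ubiquitin ligase for Notch ligands, rose by 0.50 ± 0.08 and 0.48 ± 0.08 on the log2 scale (adjusted p = 4.59e-05 and 8.77e-05). ADAM10, the protease of the first ligand-induced cut, fell by 0.24 ± 0.06 without CPT (adjusted p = 0.00788) and by 0.26 ± 0.06 with CPT (adjusted p = 0.00375). The call without CPT was lost without Con replicate 1 (-0.18), and with the GC trend removed the value was -0.15. No γ-secretase subunit among the 6 tested and none of the 4 tested receptor glycosylation genes was called. NUMB, an endocytic inhibitor of Notch, fell by 0.26 ± 0.07 and 0.21 ± 0.07 (adjusted p = 0.0084 and 0.0346), while its paralogue NUMBL rose by 0.46 ± 0.11 in each comparison (adjusted p = 0.00445 and 0.0049). The NUMB call with CPT was lost without CPT replicate 3 or any CPT+GTA+5-Aza replicate (-0.24 to -0.19), and with the replicate block, scaling by library size alone, no filter, only the groups of the comparison or the GC trend removed (adjusted p = 0.0502 to 0.0924).

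DTX4, a Deltex ubiquitin ligase, had 1, 1 and 4 counts in Con, 0, 0 and 0 in CPT, 2, 11 and 12 in GTA+5-Aza, and 16, 2 and 24 in CPT+GTA+5-Aza. It was called with CPT (adjusted p = 0.00256). Its mean level in CPT+GTA+5-Aza was 5.10 times what 3 counts per library would give in CPT, though replicate 2 held only 2 counts. ITCH, a ubiquitin ligase that targets Notch receptors, fell with CPT (-0.31 ± 0.08, adjusted p = 0.0057) and had -0.21 ± 0.08 without CPT (adjusted p = 0.0517), a call without Con replicate 2, CPT replicate 2 or 3, or GTA+5-Aza replicate 2 (-0.28 to -0.17). The likelihood ratio test, DESeq2, RLE scaling, no filter, a mean CPM of at least 1 and only the groups of the comparison also called it there (adjusted p = 0.0212 to 0.0495).

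Among the nuclear factors, the co-repressors CTBP1 and CTBP2 fell in each comparison, by 0.31 ± 0.07 and 0.37 ± 0.07 without CPT (adjusted p = 0.004 and 0.000431) and by 0.31 ± 0.07 and 0.34 ± 0.07 with CPT (adjusted p = 0.00398 and 0.00121). With the GC trend removed CTBP1 had -0.48 and -0.46. TLE2, a Groucho co-repressor, rose without CPT (0.51 ± 0.12, adjusted p = 0.00448, or 0.32 with the GC trend removed), and its relative TLE3 rose with CPT (0.39 ± 0.10, adjusted p = 0.0062), a call lost without CPT replicate 1 (0.31). With CPT, the co-activators MAML1 (-0.20 ± 0.07, adjusted p = 0.0491) and SNW1 (-0.20 ± 0.07, adjusted p = 0.0432) and the co-repressor CIR1 (-0.42 ± 0.14, adjusted p = 0.0344) fell. These calls were not stable to leaving out a library. That of MAML1 was lost without any Con replicate, CPT replicate 1 or 3, GTA+5-Aza replicate 1, or CPT+GTA+5-Aza replicate 2 or 3 (-0.24 to -0.16). That of SNW1 was lost without CPT replicate 1 or 3, GTA+5-Aza replicate 1 or any CPT+GTA+5-Aza replicate (-0.26 to -0.18), and that of CIR1 without any CPT replicate or CPT+GTA+5-Aza replicate 2 or 3 (-0.48 to -0.38). The 3 calls were also lost with scaling by library size alone, without the filter and with only the groups of the comparison, those of MAML1 and SNW1 with the replicate block, and that of CIR1 with the GC trend removed (adjusted p = 0.053 to 0.125). Without CPT, DESeq2 called MAML1 and SNW1 (adjusted p = 0.0442 and 0.0478), and MAML1 was called with the GC trend removed (-0.26, adjusted p = 0.00307).

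**Figure D5:**
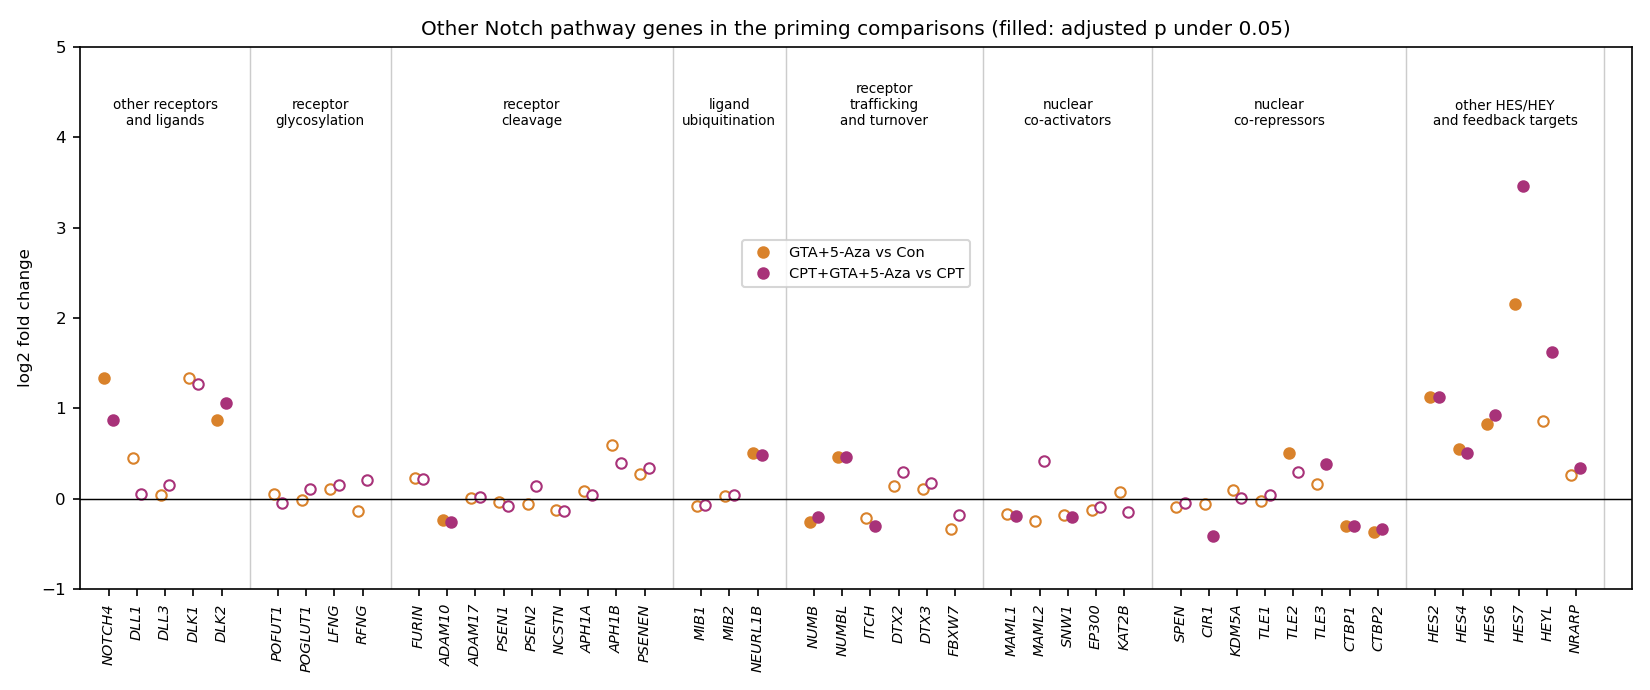
Log2 fold changes (y axis) of other tested Notch pathway genes (x axis, grouped by role) on priming without CPT (orange) and with CPT (purple), filled where the adjusted p is under 0.05. DTX4 is left out because all its CPT libraries are at 0. The points above 1 are NOTCH4, DLK1, DLK2, HES2, HES7 and HEYL, and the called genes below 0 lie between -0.42 and -0.20.

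Base composition moved with priming across all genes. Protein-coding genes with a GC content of at least 60% had a median log2 fold change of 0.20 without CPT and 0.19 with CPT, and those under 45% had -0.074 and -0.073. NOTCH3 has 62.4% GC in its exons, NOTCH1 63.2% and JAG2 64.2%, whereas RBPJ has 39.9% and HEY1 45.2%. NOTCH1 thus fell within a class that was higher as a median. NOTCH1 lies 1848669 and JAG2 1874894 bases from a chromosome end. Genes within 2 Mb of an end had a median of 0.023 without CPT, against 0.0095 for the rest. The part of these trends in the members' changes was tested only by the removal of the GC trend given above.

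The genes whose log2 CPM followed a member most closely over the 12 libraries were found for the 3 members called in both priming comparisons, among 14731 tested genes with a symbol. For NOTCH3 they were PTPRF, TOX2 and TES (Pearson's r 0.98 for each). For NOTCH1 they were MAD1L1, MAP4 and LANCL2 (0.97 for each), and for JAG1 MYOF, GTF2I-AS1 and MYO10 (0.97 for each). The 12 points fall into primed and unprimed libraries, so these values describe a shared difference between those groups.

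The cell type in the labels was set against 26 marker genes. Among the epithelial markers, KRT8 had 1409 to 1740 CPM, KRT18 644 to 854 and KRT19 28.4 to 41.4, while EPCAM had at most 1 count and CDH1 at most 4. KRT7 had 4 to 49 counts. The mesenchymal genes VIM and CDH2 summed to 6071 to 6593 CPM in the unprimed libraries and 5308 to 5731 in the primed ones, with at most 5 counts of CDH2. The summed epithelial level was 2082 to 2536 CPM without priming and 2443 to 2625 with it, and the part of either change in the Notch results was not tested. The endothelial genes PECAM1, CDH5, KDR and TEK had 0 counts in all 12 libraries, and VWF had at most 11. Of the immune and acinar genes CD3E, PRSS1, CPA1 and CELA3A were at 0, and PTPRC, CD68 and CTRB1 had at most 8 counts. The fibroblast genes DCN, LUM, PDGFRB and COL1A1 had at most 44 counts, and COL1A2 had 689 to 943 CPM.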

How the data were processed

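RNA-seq of 12 MiaPaca2 libraries, 3 per group, was used. The authors used Trim Galore for trimming, HISAT2 2.2.1 for alignment to GRCh38 and HTSeq for assignment to genes. The authors deposited unnormalised counts of reads per gene. The annotation release and the strand setting of the counting are not given in the sources used here. Groups and replicate numbers came from the sample labels. Of the 63677 identifiers, 11496 have no entry in GENCODE v44 and stayed in the tests under their identifier.

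The tests ran in edgeR 4.0.16 with limma 3.58.1 under R 4.3.3. The filter filterByExpr left 17123 genes, and 1 quasi-likelihood model with TMM scaling covered the 12 libraries (glmQLFit, glmQLFTest, common dispersion 0.0101, 18.3 prior degrees of freedom). SE is the absolute log2 fold change over the square root of F. The script was tested on simulated counts.

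The named genes are the 10 members, the listed pathway genes called in either priming comparison, and, for each member called in both, the 3 tested genes with the highest Pearson's r of log2 CPM (prior count 2). Genes given as not called were added to complete a role, and some listed genes that enter the counts are not reported here. The members and lists were chosen with earlier results of these data known. Receptor shares, count ratios and the canonical transcript length were chosen after the data were seen.

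Alternatives were the likelihood ratio test, glmTreat against a fold change of 1.5, DESeq2 1.42.0, RLE scaling, library size alone, no filter on low counts, a mean CPM of at least 1, only the groups of a comparison, a replicate block, leave-one-out fits, and GC trends of the libraries removed. Fits that leave out a library assume that its group varies like the others.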

Additional observations from a re-analysis of the deposited data

How the results depend on the processing

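The calls of NOTCH1, NOTCH3 and JAG1 on priming held under each alternative but glmTreat against a fold change of 1.5, a test of a larger change, under which NOTCH3 stayed called with CPT and in the average over CPT. That test called 0 members in GTA+5-Aza against Con, 1 in CPT+GTA+5-Aza against CPT, 0 in CPT+GTA+5-Aza against Con and 1 in the average, and 2, 4, 1 and 5 of the other pathway genes in the same order. Over all 17123 genes it called 203 higher and 13 lower, 202 and 14, 175 and 21, and 370 and 28 in that order. It left 1 DEG among the members in CPT+GTA+5-Aza against CPT and 0 in CPT+GTA+5-Aza against Con. In CPT+GTA+5-Aza against CPT 1 member was a DEG with scaling by library size alone, and 1 in CPT+GTA+5-Aza against Con with the GC trend removed. Without a filter on low counts, 1 member, DLL4, was past the DEG thresholds in the interaction. With the GC trend removed JAG2 reversed to -0.17 in GTA+5-Aza against Con, -0.13 in CPT+GTA+5-Aza against CPT, -0.17 in CPT+GTA+5-Aza against Con and -0.15 in the average, with adjusted p = 0.044, 0.125, 0.0384 and 0.00597, and CIR1 to 0.017 in GTA+5-Aza against Con. Scaling by library size alone moved the median log2 fold change of all genes to 0.047 without CPT and 0.045 with CPT.

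Leaving out each library in turn gave 3 to 6 called members in GTA+5-Aza against Con, 3 to 4 in CPT+GTA+5-Aza against CPT, 3 to 5 in CPT+GTA+5-Aza against Con, 5 to 7 in the average and 0 in the CPT comparisons and the interaction, with 1 to 2 DEGs in each of the first 3 comparisons. It gave 12 to 19, 13 to 21, 12 to 20 and 23 to 26 called genes of the other list. The fit to all libraries gave 14, 20, 18 and 24, or 29.2%, 41.7%, 37.5% and 50.0% of those tested. Calls over all genes moved in the same fits. On priming without CPT, 1105 to 1990 genes rose and 825 to 1657 fell, around 1703 and 1290 with every library. With CPT, 1145 to 2058 rose and 779 to 1709 fell, around 1639 and 1265. The counts of members and listed genes thus stand against all-gene shares that also moved. JAG2 ranged from -0.055 to 0.089 in GTA+5-Aza against Con, from -0.027 to 0.12 in CPT+GTA+5-Aza against CPT, from -0.11 to 0.031 in CPT against Con, from -0.038 to 0.024 in CPT+GTA+5-Aza against GTA+5-Aza, from -0.070 to 0.072 in CPT+GTA+5-Aza against Con, from -0.0067 to 0.068 in the average and from -0.047 to 0.097 in the interaction. In CPT against Con RBPJ ranged from -0.089 to 0.086 and HEY1 from -0.39 to 0.13. In CPT+GTA+5-Aza against GTA+5-Aza RBPJ ranged from -0.018 to 0.17, HES1 from -0.0065 to 0.10 and HEY1 from -0.22 to 0.57. In the interaction NOTCH1 ranged from -0.019 to 0.044, JAG1 from -0.038 to 0.044, RBPJ from -0.033 to 0.16 and HEY1 from -0.077 to 0.71. CIR1 ranged from -0.18 to 0.044 in GTA+5-Aza against Con. The causes were not tested.

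Replicates share numbers across groups. The correlation of the deviations from the group means was -0.38 to 0.42 for same-numbered libraries of different groups. For differently numbered ones it was -0.38 to 0.37, so the numbers showed no consistent pairing. With the replicate number as a block, 5 members in place of 6 were called in GTA+5-Aza against Con (RBPJ, adjusted p = 0.0532), 3 in CPT+GTA+5-Aza against CPT, 5 in place of 4 in CPT+GTA+5-Aza against Con (HEY1, adjusted p = 0.0372), 6 in the average, and 0 in the CPT comparisons and the interaction. Of the other pathway genes the block left 17 of 20 calls in CPT+GTA+5-Aza against CPT, without NUMB (adjusted p = 0.0502), MAML1 (0.0602) and SNW1 (0.0577). Depth limits DLL4 and HEY2, and the low level of HEY1 its precision.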
